A study of Mus musculus with 3 samples.

Results

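The genes described here are 10 genes of the protein synthesis machinery that were chosen by name, out of 48795 gene identifiers in the deposited tables. They are 4 elongation factor genes (Eef1a1, Eef2, Eef1b2 and Eef1g), 4 initiation factor genes (Eif1, Eif4a1, Eif4a2 and Eif4g2), the poly(A)-binding protein gene Pabpc1, and Tpt1, which encodes the translationally controlled tumour protein. All 10 were found in the tables and all 10 had a count in at least 1 library. Their RNA was measured in polysomes of mouse cells labelled as bone marrow, in 2 libraries of wild-type (WT) genotype and in 1 library of the genotype Mat KO. Markers of blood cells were nearly absent from WT 2 and from the Mat KO library, so their labelled tissue could not be recognised from the counts, and every WT against Mat KO value compares libraries of unlike content. The genotype name is not spelled out in the labels, and the title of the series places it among snoRNAs of the Dlk1-Gtl2 imprinted locus, rRNA modification and translation. Before lysis all cells were held for 10 minutes in 100 μg/ml of cycloheximide, which stops ribosomes on their mRNAs, and a sucrose gradient of 10% to 50% was used to separate the polysomes. The sources used here do not state the age and strain of the mice, the gradient fractions used or whether animals were pooled. Counts and shares given as 3 values follow the order WT 1, WT 2, Mat KO.

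In each round of elongation, eEF1A brings an aminoacyl-tRNA to the ribosome, the eEF1B complex recharges eEF1A with GTP, and eEF2 moves the ribosome along the mRNA. Initiation factors load the small subunit onto the mRNA, unwind its leader and find the start codon, and the poly(A)-binding protein joins the tail of the mRNA to the initiation complex. Many mRNAs of this machinery, with those of the ribosomal proteins, belong to the TOP class: they begin with a C followed by an unbroken stretch of pyrimidines, through which the kinase mTOR and the RNA-binding protein LARP1 turn their translation up or down. A move of a TOP mRNA in or out of polysomes is a known readout of that control. Matched total RNA was not analysed here, so loading on polysomes cannot be separated from the amount of each mRNA.

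A start with the letters of a TOP element was the sequence feature that several of these genes share, and it is shown for Pabpc1, Tpt1 and Eif4a2. Such a match alone does not make an mRNA a TOP mRNA, and Eif4a2 is not among the TOP genes listed below. The start of Eef2, which has no match, is shown for contrast. Annotated transcripts of GENCODE M21 (GRCm38) were searched on the RNA strand for a first base C followed directly by at least 4 bases that are C or T. Of the 10 genes, 4 had such a transcript (40%), namely Eef1b2, Eif4a2, Pabpc1 and Tpt1. Among 21600 nuclear protein-coding genes the share was 8.07%, and among 87 ribosomal protein genes it was 40.2%. A gene was taken as a match if any of its annotated transcripts matched, so genes with many transcripts can match more easily. The number of transcripts per gene was not taken into account. Of the starts shown, that of Pabpc1 carries the longest run, with 12 bases. The annotated Eef2 transcript does not begin with such a run, and its pyrimidine run lies at position 16. A gene without a match only lacks these letters at its annotated starts, which need not be the starts used in marrow. The first 30 bases are given in the 5′ to 3′ direction, with the pyrimidine run in capitals.
Pabpc1, chr15:36608944-36608973, minus strand: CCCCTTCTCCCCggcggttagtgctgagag
Tpt1, chr14:75845331-75845360, plus strand: CTTTTCCgcccgctcccccctccccccgcg
Eif4a2, chr16:23107758-23107787, plus strand: CTTTTCagtcgggcgctgagtgggttttcg
Eef2, chr10:81176631-81176660, plus strand: gttgacgtcagcggtCTCTTCCgccgcagc
The transcripts of Pabpc1, Eif4a2 and Eef2 shown are annotated as protein-coding, and that of Tpt1 as one with a retained intron.

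The 3 libraries differed widely in how much mRNA they held. With Lars2 left out because it took a large part of the reads, nuclear protein-coding genes had 18576, 1220 and 8021 counts, spread over 4206, 378 and 572 genes. This was 28.8%, 0.51% and 6.37% of the reads assigned to genes, and a further 33.5%, 74.3% and 66.1% of all recorded reads were set aside as falling on several genes. Levels are therefore given as counts per 10000 of these counts. Taking 3 counts as the limit that a count of 0 allows, a gene with no count could have had a share of up to 1.61, 24.6 and 3.74. Markers of blood cells were counted in WT 1 and nearly absent from the other libraries. Of 11 globin and erythroid genes 8 were counted in WT 1 (427 counts in all) and 0 in WT 2 or the Mat KO library, of 14 neutrophil granule genes 12, 0 and 0 were (527 counts in WT 1), and of 12 B and plasma cell genes 7, 0 and 1 (156, 0 and 1 counts). Of 10 stem and progenitor cell genes 4, 0 and 0 were counted. With 10 counts in WT 1 (5.38 per 10000), this list lay under the 24.6 that a 0 allows in WT 2, so its absence there cannot be read. Bone and stromal markers had 504, 21 and 0 counts (271, 172 and 0 per 10000) with 11, 3 and 0 of 12 genes counted. The 3 most counted of them had few counts in WT 2: Col1a1 had 189, 1 and 0, Col1a2 134, 0 and 0 and Sparc 99, 4 and 0. The summed share of WT 2 therefore does not show that it held bone or marrow stroma like WT 1. The hemoglobin gene Hbb-bs had 168, 0 and 0 counts and the calprotectin gene S100a8 137, 0 and 0. Genes of other organs were present too. Pancreatic acinar markers had 1, 16 and 887 counts (0.538, 131 and 1106 per 10000) with 1, 9 and 19 of 21 genes counted, liver markers 676, 26 and 0, and skeletal muscle markers 309, 0 and 0, with the chymotrypsinogen gene Ctrb1 at 0, 3 and 238. The part that these differences in content have in the results for the translation factors was not tested. In bulk RNA, fewer cells of a type and less RNA per cell cannot be told apart.

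Summed over the 10 genes, the translation factors had the lowest share in the Mat KO library. With 247, 43 and 14 counts, they took 133 (117 to 150), 352 (263 to 471) and 17.5 (10.4 to 29.3) per 10000, where the brackets hold 95% Wilson intervals, as they do for all shares. The Mat KO library lay below both WT libraries, and the intervals of the 3 libraries do not overlap. Reads carry no molecular identifiers, so these intervals cover counting error only and are too narrow where reads are duplicates. In the Mat KO library 128 of 572 counted genes had a single count, against 1882 of 4206 in WT 1 and 267 of 378 in WT 2. Many of its other counts were even numbers, such as 16, 18, 20 and 22. Duplication was not measured, so every interval that involves the Mat KO library may be too narrow. The share of WT 1 was 7.62-fold that of the Mat KO library (exact conditional interval 4.45 to 14.1), that of WT 2 was 20.2-fold (10.8 to 40.0), and the WT libraries themselves differed 2.65-fold (1.87 to 3.68). As log2 ratios, WT 1 lay 2.93 above the Mat KO library and 1.41 below WT 2. The separation depends on the denominator. Over all gene-assigned counts the shares were 38.3, 1.8 and 1.11 per 10000, so that WT 2 lay near the Mat KO library and far below WT 1. With pancreatic, liver and muscle markers left out of the denominator they were 140, 365 and 19.6.

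Over libraries as replicates the difference was not past a test. The mean of the WT libraries was 243 ± 155 (SD, n = 2) per 10000, and the log2 ratio of the Mat KO library to it was -3.80. In an exact two-sided permutation test over the 3 libraries p was 0.667, where the smallest p that 2 libraries against 1 allow is 0.333. The Mat KO arm is 1 library with no spread of its own, and the labels do not say that the WT libraries are separate mice. Setting each gene as counted or not gave another order: 10 of 4206 counted genes were translation factors of this list in WT 1 (0.238%), 6 of 378 in WT 2 (1.59%) and 5 of 572 in the Mat KO library (0.874%), so on this scale the Mat KO library lay between the WT libraries. The number of genes counted itself moves with depth.

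**Figure D1:**
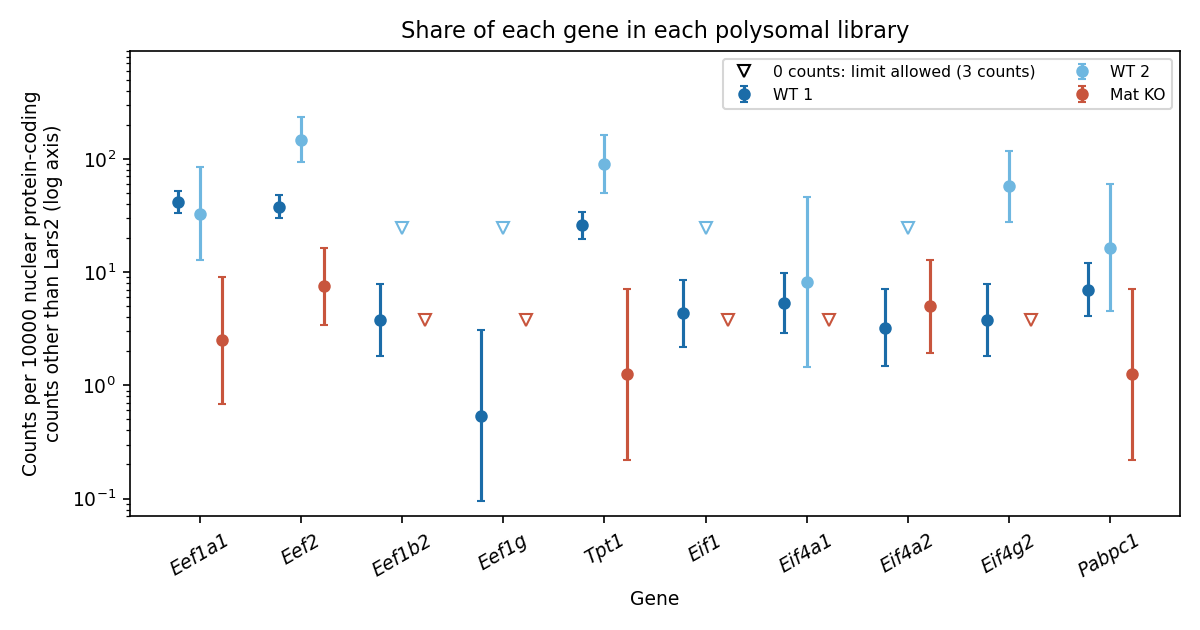
Counts of each of the 10 genes per 10000 nuclear protein-coding counts other than Lars2 (log axis) for WT 1 (dark blue), WT 2 (light blue) and Mat KO (red), with 95% Wilson intervals as bars; open triangles mark the limit that a count of 0 allows. Eef1a1, Eef2 and Tpt1 lie at 41.5, 37.7 and 25.8 in WT 1 and at 2.49, 7.48 and 1.25 in the Mat KO library.

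Eef1a1, the gene of the main form of eEF1A in most tissues (ENSMUSG00000037742, chromosome 9 from 78478449 to 78489151), had 77, 4 and 2 counts. Its share was 41.5 per 10000 (33.2 to 51.8), 32.8 (12.8 to 84.0) and 2.49 (0.684 to 9.09). On this scale both WT libraries lay above the Mat KO library. They differed by less than counting error, with a WT 2 to WT 1 ratio of 0.791 (0.210 to 2.11). The value of WT 2 rests on 4 counts and depends on the denominator. Over all gene-assigned reads, WT 2 (4 of 239429) and the Mat KO library (2 of 125871) had nearly the same share. Against the Mat KO library the ratio was 16.6 (4.45 to 140) for WT 1 and 13.1 (1.88 to 145) for WT 2. By raw count Eef1a1 held rank 12 of 4206 in WT 1. In WT 2 it held rank 55 of 378, where 18 more genes had the same count. In the Mat KO library it held rank 434 of 572, where 10 more genes had the same count.

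Eef2, the gene of the translocase of the ribosome (ENSMUSG00000034994, chromosome 10 from 81176631 to 81182498), had 70, 18 and 6 counts. Per 10000 this was 37.7 (29.8 to 47.6), 148 (93.5 to 232) and 7.48 (3.43 to 16.3). WT 2 was highest, 3.92-fold above WT 1 (2.19 to 6.65), and the Mat KO library lowest, 5.04-fold below WT 1 (2.20 to 14.2) and 19.7-fold below WT 2 (7.50 to 60.7). On this scale the WT libraries thus differed from each other beyond counting error for Eef2 and not for Eef1a1. This depends on the denominator. Over all gene-assigned reads, Eef2 had 70 of 64547 in WT 1, 18 of 239429 in WT 2 and 6 of 125871 in the Mat KO library. There WT 1 lay far above WT 2, also for Eef1a1 (77 of 64547 against 4 of 239429). WT 2 lay much nearer to the Mat KO library for Eef2 than it did per 10000. Of the reads on these 2 genes, Eef2 took 70 of 147 (47.6%, Wilson interval 39.7 to 55.7) in WT 1, 18 of 22 (81.8%, 61.5 to 92.7) in WT 2 and 6 of 8 (75.0%, 40.9 to 92.9) in the Mat KO library. The balance between both elongation factors in the Mat KO library could not be told from that of either WT library at this depth.

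The subunits of the exchange complex of eEF1A were counted in WT 1 alone. Eef1b2, whose product swaps GDP for GTP on eEF1A, had 7, 0 and 0 counts, and Eef1g, a structural subunit, had 1, 0 and 0. Against the limit in the Mat KO library (3 counts), the share of Eef1b2 in WT 1, 3.77 per 10000 (1.83 to 7.78), was at least 1.01-fold higher, which is no difference beyond counting error. A level like that of WT 1 would not have been seen in WT 2, where a count of 0 allows 24.6. Eef1g gives no comparison, since all libraries lie at or under the limit.

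Among the 5 genes counted in the Mat KO library, Tpt1 had the highest ratio of each WT library over it. The gene (ENSMUSG00000060126, chromosome 14 from 75845093 to 75848525) encodes TCTP, a small protein made in quantity by growing cells, and it is a standard example of a TOP mRNA. It had 48, 11 and 1 counts, or 25.8 (19.5 to 34.2), 90.2 (50.4 to 161) and 1.25 (0.220 to 7.06) per 10000. On this scale WT 2 again lay above WT 1, 3.49-fold (1.63 to 6.81), and the Mat KO library below both. With a single count in the Mat KO library, the ratios are loose: 20.7 (3.55 to 835) for WT 1 and 72.3 (10.5 to 3113) for WT 2. The order of the WT libraries depends on the denominator. Over all gene-assigned reads Tpt1 had 48 of 64547, 11 of 239429 and 1 of 125871, so that WT 1 lay above WT 2 and the Mat KO library stayed lowest. The processed pseudogene Tpt1-ps3, whose sequence is identical to the coding sequence of Tpt1 over its whole length (100% identity), had 4, 1 and 0 counts, so a few reads of Tpt1 may be recorded there.

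Pabpc1, the gene of the main cytoplasmic poly(A)-binding protein (ENSMUSG00000022283, chromosome 15 from 36595661 to 36609668), had 13, 2 and 1 counts. Its share was 7 (4.09 to 12), 16.4 (4.50 to 59.6) and 1.25 (0.220 to 7.06) per 10000. The order was that of Tpt1, but the ratios of 5.61 (0.843 to 239) and 13.1 (0.685 to 776) over the Mat KO library both include 1. On this scale the 3 libraries could therefore not be told apart for Pabpc1 at this depth.

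The initiation factors were thinly counted and did not share 1 pattern. Together the 4 genes had 31, 8 and 4 counts, or 16.7 (11.8 to 23.7), 65.6 (33.3 to 129) and 4.99 (1.94 to 12.8) per 10000. The 8 counts of WT 2 came from Eif4g2 and Eif4a1, and all 4 of the Mat KO library from Eif4a2. Eif1, the factor that keeps the scanning ribosome from starting at wrong codons, had 8, 0 and 0 counts. Eif4a1, the helicase that unwinds mRNA leaders, had 10, 1 and 0. Set against the Mat KO library at its limit of 3 counts, the WT 1 shares of 4.31 (2.18 to 8.5) and 5.38 (2.92 to 9.91) per 10000 were at least 1.15-fold and 1.44-fold higher. The limit of 3.74 lies inside both intervals, so neither gene differed beyond counting error.

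Both forms of the eIF4A helicase were counted in WT 1, and 1 form alone in each of the other libraries. Eif4a2, the paralog of Eif4a1, had 6, 0 and 4 counts, or 3.23 (1.48 to 7.05), 0 and 4.99 (1.94 to 12.8) per 10000. Of the 10 genes it was the 1 with a higher observed share in the Mat KO library than in both WT libraries, as 10.7% of the 4645 nuclear protein-coding genes with any count were. Its WT 1 to Mat KO ratio was 0.648 (0.154 to 3.12), which includes 1. Of the counts on both helicase genes, Eif4a2 held 6 of 16 in WT 1 (37.5%, 18.5 to 61.4) and 4 of 4 in the Mat KO library (100%, 51.0 to 100), and the intervals overlap. Eif4g2, also called DAP5, is a relative of the eIF4G scaffold that does not bind the cap-binding protein eIF4E. It had 7, 7 and 0 counts, or 3.77 (1.83 to 7.78), 57.4 (27.8 to 118) and 0 per 10000. On this scale WT 2 was 15.2-fold above WT 1 (4.56 to 50.9). That distance was as large as the bound for WT 2 over the Mat KO library, at least 15.3-fold higher (3 counts in the Mat KO library). Over all gene-assigned reads WT 1 (7 of 64547) lay above WT 2 (7 of 239429).

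Levels can be set against each other between genes only per length, here per kilobase of the transcript with the longest coding sequence. In WT 1 the order was Eef1a1 with 42.9 counts per kilobase, Tpt1 with 41.1, Eef2 with 22.7, Eif1 with 6.05, Eif4a1 with 5.64, Eif4a2 with 4.89, Pabpc1 with 4.61, Eef1b2 with 3.61, Eif4g2 with 0.876 and Eef1g with 0.536. By this measure Eef1a1, Tpt1 and Eef2 held ranks 26, 29 and 62 among 4206 counted nuclear protein-coding genes of WT 1. In WT 2 Tpt1 led with 9.41 counts per kilobase (rank 9 of 378), before Eef2 with 5.83 (rank 22) and Eef1a1 with 2.23 (rank 53). In the Mat KO library Eif4a2 led with 3.26 (rank 192 of 572), followed by Eef2 with 1.94 (rank 289), Eef1a1 with 1.11 (rank 383), Tpt1 with 0.855 (rank 418) and Pabpc1 with 0.355 (rank 503). The ranks in the Mat KO library rest on 1 to 6 counts, and the Eif4a2 transcript used holds coding sequence alone (1227 bases), which raises its value per kilobase. The transcript used has 7995 bases for Eif4g2 (2721 coding) and 1939 for Eef1b2 (678 coding). A shorter transcript would give these genes a higher value per kilobase. Eef1a1, Eef2 and Tpt1 gave 78.9% of the counts of the 10 genes in WT 1, against 76.7% (WT 2) and 64.3% (Mat KO). The other 7 genes had 52, 10 and 5 counts, and for these the share was also lowest in the Mat KO library, with 28.0, 82.0 and 6.23 per 10000.

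**Figure D2:**
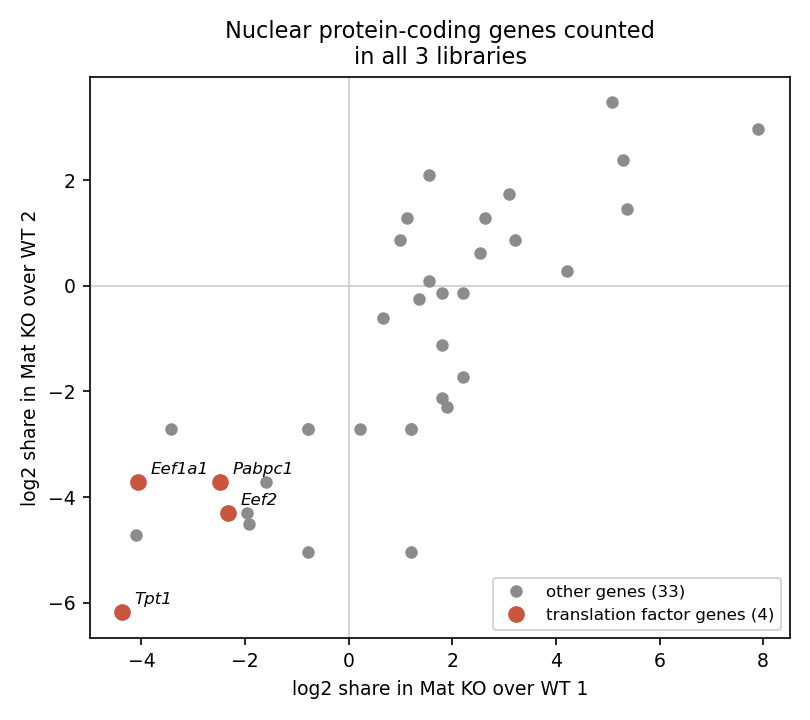
Each point is a nuclear protein-coding gene with a count in all 3 libraries (37 genes), placed by the log2 ratio of its share in the Mat KO library to WT 1 (horizontal) and to WT 2 (vertical); translation factor genes are coloured and named. Tpt1 has the lowest ratio on both axes, -4.37 and -6.18, and the medians of all 37 genes are 1.21 and -1.72.

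The lower share in the Mat KO library has to be read against how other genes behaved. Of the 10 genes, 6 had a lower share in the Mat KO library than in both WT libraries, and the same held for 4.22% of the 4645 nuclear protein-coding genes with a count in any library. These 6 (Eef1a1, Eef2, Tpt1, Pabpc1, Eif4a1 and Eif4g2) are the members with a count in both WT libraries. Among all 221 genes with a count in both WT libraries 88.7% were lower in the Mat KO library than in both, so 6 of 6 is near the background and is not a result about the translation factors. None of the 6 was higher in the Mat KO library than in both, against 5.88% of the 221.

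Of the 10 genes, 4 had a count in every library, against 0.797% of the 4645. Among the 37 such genes the background was lower. There 32.4% of 37 genes had their lowest share in the Mat KO library, and 4 of the 4 translation factors did, while 35.1% of the 37 had their highest share there. For these 4 genes, Eef1a1, Eef2, Tpt1 and Pabpc1, the median log2 ratio of the Mat KO library was -3.27 to WT 1 and -4.01 to WT 2, and for the 37 genes it was 1.21 and -1.72. Tpt1 was the lowest of the 37 against each WT library. Eef1a1, Pabpc1 and Eef2 held places 3, 5 and 6 from the lowest against WT 1, and places 8, 8 and 6 against WT 2. Many of the 37 genes rest on a single count in 1 library or more, such as Gnb2 and Set with 1, 1 and 1 counts. The 4 translation factors had 13 to 77 counts in WT 1, and they are themselves part of the 37. The comparison thus sets genes of unlike depth side by side. It is a description of 3 libraries and no test.

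In the test across genes none of the translation factors differed between Mat KO and WT. Of 437 genes tested with edgeR's quasi-likelihood test, 0% passed a false discovery rate of 0.05 and 0 had an unadjusted p under 0.05. No gene was called by edgeR's likelihood ratio test, where 71 had an unadjusted p below that value, by limma-voom (20) or by DESeq2 (7). Only 4 of the 10 genes passed the filter on low counts. They passed through their WT counts, so the negative sign of their fold changes follows from the filter and is no support. For Eef1a1 the log2 fold change was -4.38 (standard error 5.92, edgeR adjusted p = 0.729). For Tpt1 it was -4.33 (5.78, edgeR adjusted p = 0.729), for Eef2 -3.87 (6.0, 0.769) and for Pabpc1 -2.48 (5.37, 0.847). Each standard error is larger than the fold change itself. The spread behind it is that of the WT libraries, with 1 residual degree of freedom and a common dispersion of 3.88.

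The size of these values depended on which WT library was used. Without WT 1 the log2 fold changes of Eef1a1, Eef2, Tpt1 and Pabpc1 were -2.04, -3.22, -3.66 and -1.55, and without WT 2 -5.47, -4.48, -5.12 and -3.32. The median of all tested genes was -0.27 with both WT libraries, 1.78 without WT 1 and -0.91 without WT 2. With 1 library on each side no residual degree of freedom is left, and these are values with no test.

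**Figure D3:**
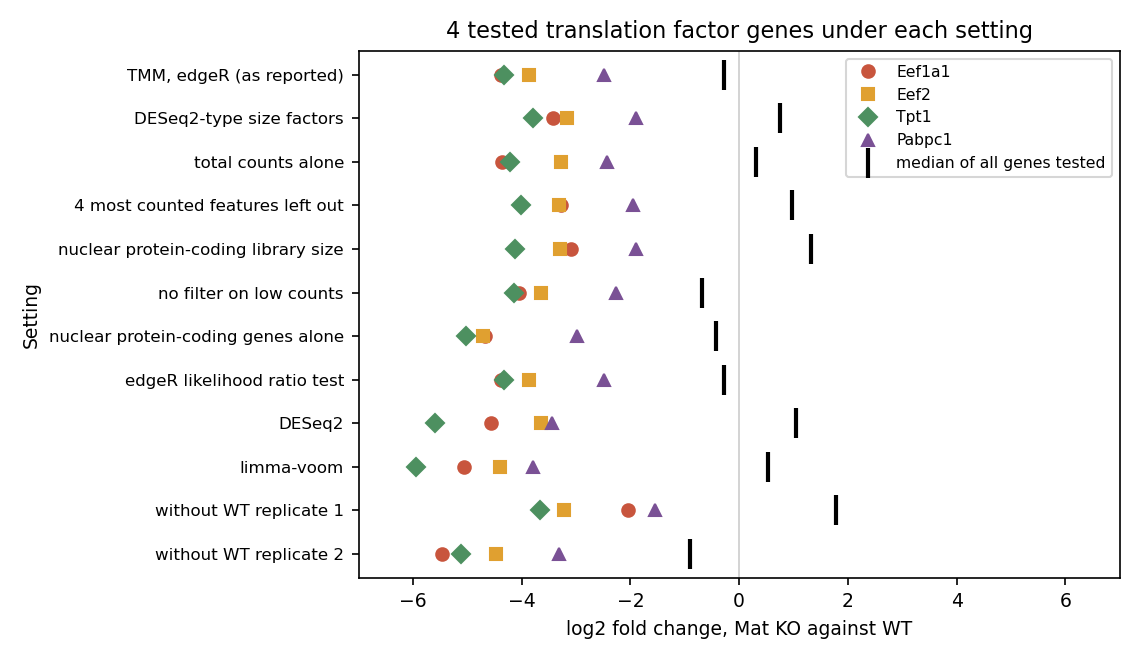
Log2 fold changes of Eef1a1, Eef2, Tpt1 and Pabpc1 in Mat KO against WT (horizontal) under each way of scaling, filtering and testing (vertical), with the median of all genes tested as a black bar. The 4 genes, which passed the filter through their WT counts, lie between -5.94 and -1.55, and the median runs from -0.91 to 1.78.

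The rest of the pathway was read from 8 lists of elongation, initiation, poly(A)-binding, termination, control and mitochondrial translation genes, with 93 genes other than the 10. These had 133, 25 and 26 counts, with 39, 11 and 3 genes counted. Their share was 71.6 (60.5 to 84.8), 205 (139 to 301) and 32.4 (22.1 to 47.5) per 10000. On this denominator the order was that of the 10 genes, with a smaller distance. This order depends on the denominator. WT 2 had 25 counts of 239429 gene-assigned reads, and the Mat KO library 26 of 125871. Over all gene-assigned reads WT 2 thus lay below the Mat KO library for these 93 genes, and above it for the 10 genes. Only 1 of the 93, Eif4g1, had enough counts to be tested, and 0 were called in either direction.

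All but 1 of the 26 counts of the Mat KO library came from a pair of large initiation factor subunits, Eif4g1 and Eif3a. Eif4g1, the scaffold that ties the cap complex to the ribosome, had 17, 1 and 16 counts, or 9.15, 8.20 and 19.9 per 10000, so that its share was highest in the Mat KO library. Its fitted log2 fold change was -0.60 (edgeR adjusted p = 0.99), of the opposite sign, in a fit with another scaling (TMM over all gene counts), so no direction is given for Eif4g1. Eif3a, the largest subunit of eIF3, had 1, 0 and 9 counts, while the 14 eIF3 genes together had 26, 3 and 9. Against this, Eif4h, a cofactor of the helicase, had 13, 0 and 0 counts, and Eif5a, which helps ribosomes past difficult peptide bonds, had 10, 3 and 0. Eif2s3x, a subunit of the factor that brings the initiator tRNA, had 0, 12 and 0 and was seen in WT 2 alone. Translation control genes, among them the kinases of eIF2 and the 4E-BPs, had 22, 1 and 0 counts over 20 genes. Termination and recycling factors had 1, 1 and 0 over 6, and mitochondrial translation factors 13, 0 and 0 over 9, with Gfm2 at 7, 0 and 0 and Gfm1 at 6, 0 and 0. The termination factors were at or under the limit of a count of 0 in each library.

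**Figure D4:**
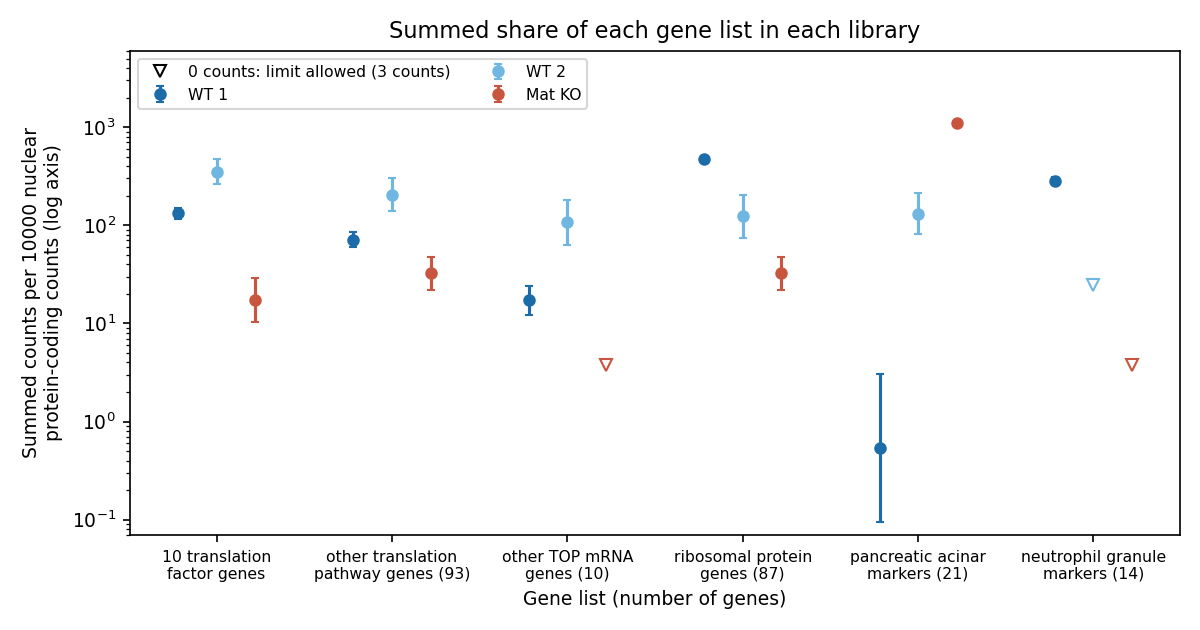
Summed counts per 10000 nuclear protein-coding counts (log axis) for the 10 translation factor genes and other lists, by library (WT 1 dark blue, WT 2 light blue, Mat KO red), with 95% Wilson intervals; open triangles mark the limit that a count of 0 allows. The 10 genes lie at 133 in WT 1, 352 in WT 2 and 17.5 for Mat KO, and the pancreatic acinar markers at 0.538, 131 and 1106.

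Other TOP mRNAs were compared with the list. Among the 10 genes, the 6 whose mRNAs are classed as TOP in textbooks (Eef1a1, Eef2, Eef1b2, Eef1g, Tpt1 and Pabpc1) held 216 of 247 counts in WT 1 (87.4%, 82.7 to 91.0), 35 of 43 in WT 2 (81.4%, 67.4 to 90.3) and 10 of 14 in the Mat KO library (71.4%, 45.4 to 88.3), with overlapping intervals. A further 10 TOP genes outside the ribosome, such as Rack1, Vim, Npm1 and Eif4b, had 32, 13 and 0 counts, or 17.2 (12.2 to 24.3), 107 (62.4 to 181) and 0 per 10000. In the Mat KO library none of these 10 genes was counted, where 3 counts would be 3.74 per 10000.

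Ribosomal protein genes, which are TOP genes as well, had 879, 15 and 26 counts over 87 genes. Their share of 473 (444 to 505), 123 (74.6 to 202) and 32.4 (22.1 to 47.5) per 10000 was highest in WT 1, whereas that of the 10 translation factors was highest in WT 2. On this denominator both were lowest in the Mat KO library. For the ribosomal protein genes this order depends on the denominator. WT 2 had 15 counts of 239429 gene-assigned reads and the Mat KO library 26 of 125871. Over all gene-assigned reads WT 2 thus lay below the Mat KO library. Of the 26 counts, 14 came from 1 gene, Rpl27, which had 17, 0 and 14 counts (9.15, 0 and 17.5 per 10000). Whether the lists differ between genotypes was not tested, since 1 library stands on the Mat KO side.

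Annotation bears on these counts in several ways. Near-identical copies, taken as annotated genes that match a coding sequence with at least 90% identity over at least 50% of its length, numbered 21 for Eif1, 13 for Eef1a1, 5 for Tpt1, 4 for Eef1g and 3 for Eif4a1. Reads that align to several places were recorded apart by the counting, so the counts of Eif1 and Eef1a1 may be too low, by an amount that is not known. Of these copies, Tpt1-ps3 and Eif4a-ps4 (0, 2 and 0 counts) were counted, and the others had 0 counts or were not in the tables. Overlap with exons of other genes was 13.3% of the exon bases for Eif4a2, 7.31% for Eef1b2, 6.62% for Eif4a1, 4.33% for Eef1a1 and 1.48% for Eif4g2, and 0% for the other 5. Among the 10 genes 6 hold snoRNA genes inside them, 14 in all, with Snord37 in Eef2, Snora31 in Tpt1, Snora41 in Eef1b2 and Snord2 and Snora81 in Eif4a2. All 14 had 0 counts in the 3 libraries, so the tables give no value for snoRNAs hosted by these genes.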

How the data were processed

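Polysomal RNA of 2 WT libraries and 1 Mat KO library was analysed, grouped by the title and genotype labels. The authors deposited unnormalized read counts for each Ensembl gene, made with Trimmomatic, HISAT2 2.1.0 and HTSeq 0.11.2 on GRCm38, per the submitters' processing notes. The sources used here do not state the annotation release or the strand setting. Reads assigned to genes numbered 64547, 239429 and 125871, which is 15.1%, 11.8% and 9.99% of all reads recorded. HTSeq summary lines (reads outside genes, on several genes or aligned to several places) name no gene and were left out. GENCODE M21 matched 48349 of 48795 identifiers.

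Shares are counts per 10000 nuclear protein-coding counts other than Lars2, with 95% Wilson intervals from SciPy 1.17.1, and ratios carry exact conditional intervals. A count of 0 was limited at 3 counts per library. All genes were tested with edgeR 4.0.16 (R 4.3.3): quasi-likelihood test, TMM, filterByExpr with the groups given (at least 10 counts, 15 in total), prior count 2, Benjamini-Hochberg adjustment at 0.05. The script was tested on simulated data. Recovery of changed genes was required only at a dispersion far under that of these data, so it does not show what the test can find here. Standard errors are the absolute log2 fold change over the square root of F. DESeq2 1.42.0 and limma 3.58.1 were alternatives. Copies were searched with BLAST 2.17.0. The 10 genes and all lists were chosen with earlier results of these data known. Named list genes are up to 3 per list with the highest summed counts and at least 5 counts in 1 library; of these, markers are named where a result turns on them, and Rack1, Vim, Npm1 and Eif4b are named as examples of their list only. The transcript start of Eef1b2 is not reported here.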

Additional observations from a re-analysis of the deposited data

How the results depend on the processing

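The log2 ratio of the summed share, Mat KO to the WT mean, was negative under each alternative run, though close to 0 when genes were counted instead of reads (-0.06, chosen after seeing the data). It was -3.80 as reported, -4.17 over all gene-assigned counts (38.3, 1.80 and 1.11 per 10000), -3.97 over counts outside the 4 most counted features, -3.83 with pseudogenes named after a gene of the list added, and -3.91 without Eef2, the most counted gene. Leaving out 1 WT library gave -4.34 without WT 1 and -2.93 without WT 2. After seeing the data, leaving out pancreatic, liver and muscle markers from the denominator gave -3.69 (140, 365 and 19.6 per 10000), leaving out the 10 most counted genes of each library -3.89 and leaving out Eef1a1, Eef2 and Tpt1 -3.14. The number of genes past the false discovery rate was 0 in all 10 alternatives with a test, with 81 genes at an unadjusted p under 0.05 when libraries were scaled to nuclear protein-coding counts. Over the fits with a test the adjusted p ran from 0.366 to 0.919 for Eef1a1, 0.366 to 0.938 for Eef2, 0.351 to 0.919 for Tpt1 and 0.419 to 0.928 for Pabpc1. Scaling moved the median of all genes, from -0.27 to 1.32. A filter at a mean of 50 counts left 20 genes and none of the 10. Upper quartile scaling could not be fitted, since the upper quartile of WT 2 is 0. No paired analysis was possible because no replicate number is given for Mat KO, so the groups share fewer than 2.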

Other observations

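Among 247 nuclear protein-coding genes with at least 20 counts over the 3 libraries, Apoe, the apolipoprotein E gene, lay nearest to the summed translation factors in its levels, at a distance of 0.90 on the log2 scale over the 3 libraries. Its 158, 62 and 18 counts, in the order WT 1, WT 2, Mat KO, are 85.1, 508 and 22.4 per 10000. The next 4 were Actb at a distance of 3.70, Calr at 4.86, Alb at 5.13 and Tmsb4x at 5.31. Of these, Actb (23.7, 57.4 and 37.4 per 10000) and Calr (11.8, 32.8 and 34.9) were not lowest in the Mat KO library, while Tmsb4x, the thymosin beta 4 gene, lay at 21.5, 32.8 and 1.25 and the albumin gene Alb at 94.7, 115 and 0. The distance compares levels in 3 libraries and is a description.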
